A study of Mus musculus with 24 samples.

Results

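The 10 genes described here belong to the integrated stress response and to the serine synthesis branch that it controls. They are the transcription factors Atf4, Atf5, Atf3 and Ddit3, the regulator Trib3, the glutathione-degrading enzyme Chac1, the secreted hormone Fgf21, the asparagine synthetase Asns, and the serine synthesis enzymes Phgdh and Psat1. They were chosen by name, as known members of the pathway, out of 56205 gene rows, with earlier results of these data known. All 10 had enough reads to be tested. The livers came from C57BL/6J mice that ate either a diet labelled deficient in methionine and choline (MCD, 12 mice) or a control diet (12 mice) for 20 weeks. Diets of this kind are used to bring about steatohepatitis and fibrosis in mice. The study's methods give the MCD diet as high in fat. Its results name an amino acid-defined high-fat diet deficient in choline, without mention of methionine. How much methionine these mice received is therefore not settled here. According to the series description each diet held 6 males and 6 females, but no single library carries a sex, an age, a litter or a batch in its labels. No transgene, mutation or drug is given for either group.

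In the integrated stress response, kinases that sense amino acid shortage, unfolded protein, heme or viral RNA phosphorylate the initiation factor eIF2. General translation slows, while the mRNA of ATF4 is translated more, so much of ATF4's regulation is not visible in its mRNA level. ATF4 binds a composite site in the promoters of genes for amino acid supply, and in the liver FGF21 is the best-known secreted product of the response. Serine is made from a glycolytic intermediate in 3 steps, by Phgdh, Psat1 and then Psph.

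The core of the ATF4 composite site, written TGATGNAA or TTNCATCA on the other strand, lay in a promoter window of 5 of the 10 genes. The windows ran from 250 bases before to 50 bases after each RefSeq start site in build GRCm38.p6, which is the assembly also called mm10. Of the 32851 promoter windows searched in the same table, 3.97% held a match, as did 4.51% of genes. The stretches around the 5 matches are printed to show the sequence and position of each match, in genes whose diet differences ran from none past the threshold (Chac1) to a widely split rise (Asns). The search fixed all letters of the core but N. They are written 5′ to 3′ on the strand of the gene, with the match in capitals.
Asns, chr6:7693210-7693269, minus strand: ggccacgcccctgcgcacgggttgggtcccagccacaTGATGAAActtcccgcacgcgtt
Atf3, chr1:191183410-191183469, minus strand: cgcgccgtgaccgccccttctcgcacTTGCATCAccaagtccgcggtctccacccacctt
Chac1, chr2:119351023-119351082, plus strand: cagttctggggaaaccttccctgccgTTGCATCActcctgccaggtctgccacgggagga
Fgf21, chr7:45615596-45615655, minus strand: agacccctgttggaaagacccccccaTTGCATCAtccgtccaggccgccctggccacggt
Trib3, chr2:152344028-152344057, minus strand: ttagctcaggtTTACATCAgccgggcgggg
Atf3, Chac1 and Fgf21 had the same letter at N. The Asns match was the only one of the 5 in the forward direction and began 23 bases before the start site, while those of Atf3, Fgf21 and Chac1 began 110, 139 and 193 bases before it. The Trib3 match began 14 bases after the start site, within the transcribed sequence. The windows of Atf4, Atf5, Ddit3, Phgdh and Psat1 did not hold these letters, which says nothing about binding elsewhere.

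Each library held between 16388650 and 24915175 counts, and the ranges of the diets overlapped almost fully. Levels are given as CPM, the counts per 1000000 of a library size scaled by trimmed mean of M values (TMM). A count of 3, taken as the lowest level resolved, equalled 0.134 to 0.227 CPM in control and 0.109 to 0.158 CPM in MCD. The TMM factors of the diets stood apart, at 0.642 to 0.973 in control and 1.07 to 1.26 in MCD. Scaling by total counts alone moved the median log2 fold change of all genes by 0.37, so each fold change below stands relative to the TMM centre. Mitochondrial genes held 5.34% to 11.5% of control counts and 5.49% to 7.79% of MCD counts.

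In MCD livers 7 of the 10 genes were higher (FDR ≤ 0.01 and log2 fold change above 0.5, edgeR's quasi-likelihood test with Benjamini-Hochberg adjustment over all 14109 genes tested), and 0 fell. Among all genes tested, 19.2% rose and 19.1% fell by the same limits, and 38.3% in either direction. Log2 fold changes were above 0 in 9 of the 10, against 42.5% of all genes. Their median was 0.98 over the 10 genes and -0.10 over all genes. The 10 genes were chosen with earlier results of these data known, so these contrasts are a description. In Atf3, Phgdh and Psat1 every MCD library lay above every control library, a pattern that 9.5% of all genes showed. The factor Atf3 and the enzymes Asns, Phgdh and Psat1 rose most over all libraries, though 6 of the 12 MCD libraries lay inside the control range of Asns. Fgf21, Trib3 and Ddit3 rose by less, and Atf4, Atf5 and Chac1 were not past the threshold. These are whole-liver libraries, in which more cells of a type and more RNA per cell cannot be told apart.

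**Figure D1:**
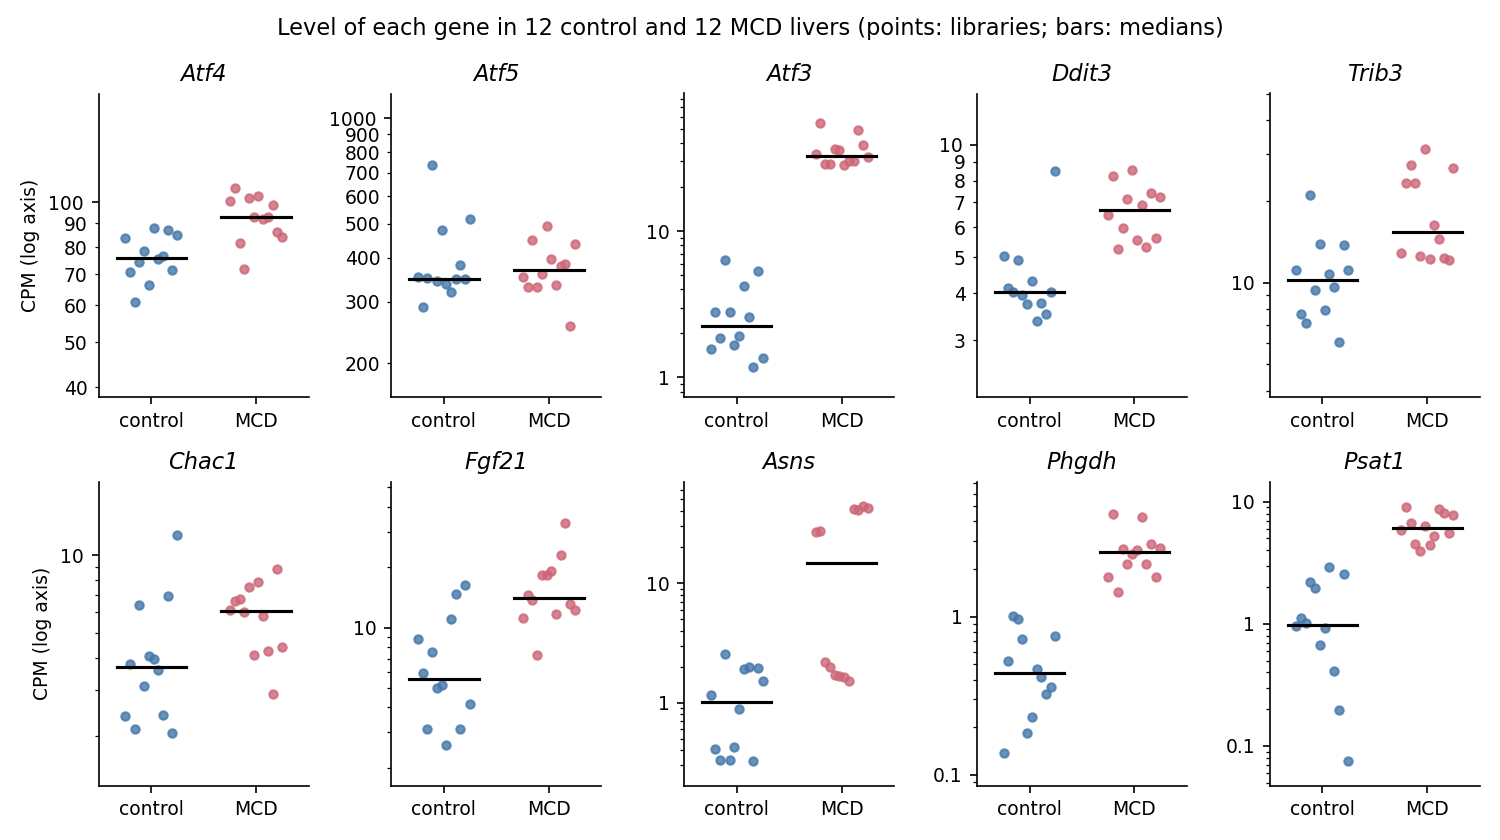
Level of each of the 10 genes in CPM on a log axis, with a point for each of the 12 control and 12 MCD libraries and a bar at the median. The MCD points of Atf3, Phgdh and Psat1 lie wholly above the control points, and those of Asns form 2 clouds, at 1.53 to 2.20 and at 26.9 to 43.6 CPM.

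Markers of other liver cell types differed between the diets as well. All 6 cholangiocyte markers were higher, their summed level running from 453 to 906 CPM in MCD and from 30.1 to 146 CPM in control. Spp1 made up most of that sum, with means of 593 and 58.7 CPM, and the other 5 had means of 1.69 to 28.5 CPM in MCD. Of 7 stellate cell and fibroblast markers 6 were higher and 1 lower (505 to 966 against 59.8 to 333 CPM). Of 8 macrophage and Kupffer cell markers 5 were higher and 3 lower (273 to 420 against 149 to 426 CPM), 4 of 6 lymphocyte markers were higher (7.40 to 18.6 against 2.24 to 8.07 CPM), and 5 of 5 proliferation markers were higher (19.4 to 32.3 against 3.67 to 14.5 CPM). Endothelial markers were lower in 4 of 5 cases (103 to 146 against 165 to 242 CPM), and hepatocyte markers in 3 of 8 (69907 to 101689 against 93093 to 191787 CPM). No marker was at 0 in every library. The part of these differences in the changes of the 10 genes was not tested.

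Among the transcription factors, Atf4 (ENSMUSG00000042406), the central activator of the response, ran from 60.9 to 88.1 CPM in control livers with a median of 75.9, and from 71.9 to 107 CPM in MCD livers with a median of 92.8. The ranges overlapped, with 8 of the 12 MCD libraries above every control library. Its mean rose from 76.5 ± 8.47 to 92.8 ± 10.3 CPM (SD, n = 12), with a difference of 0.28 on the log2 scale (SE 0.07, edgeR FDR 0.00168) that stayed under the limit of 0.5. With total counts alone the value was 0.65 and past the limit.

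Atf5 (ENSMUSG00000038539), an ATF4 relative that is abundant in liver and is itself regulated at translation, ran from 290 to 736 CPM in control with a median of 349, and from 256 to 493 CPM in MCD with a median of 370. The diets overlapped, and the highest library of all was control replicate 4. The diets differed by -0.09 on the log2 scale (SE 0.13, edgeR FDR 0.549, 95% interval -0.36 to 0.18), and its sign turned to 0.27 with total counts alone, to 0.05 by upper-quartile factors, and to 0.02 without control replicate 4. Exons of Atf5 overlap those of Nup62 and Il4i1 on the opposite strand by 82 bases. The study's methods name a stranded library kit without saying for which libraries, and the strand setting of the mouse counts is not given in the sources used here.

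Atf3 (ENSMUSG00000026628), a stress-inducible factor that represses as well as activates, gave the clearest separation of the 4. It ran from 1.17 to 6.39 CPM in control with a median of 2.25, and from 28.3 to 54.5 CPM in MCD with a median of 32.8. The lowest MCD library thus lay above the highest control library, and the 2 highest were MCD replicates 2 and 10. The mean rose from 2.80 ± 1.67 to 35.6 ± 8.39 CPM (SD, n = 12), 12.7-fold, 3.65 on the log2 scale (SE 0.23, edgeR FDR 1.93e-12).

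Ddit3 (ENSMUSG00000025408), which encodes the factor CHOP that is linked to cell death under lasting stress, ran from 3.38 to 8.48 CPM in control with a median of 4.03, and from 5.26 to 8.56 CPM in MCD with a median of 6.68. The control maximum came from replicate 12 alone, the next control library lying at 5.05 CPM, below every MCD library. MCD stood 0.58 above control on the log2 scale (SE 0.13, edgeR FDR 0.000334), and 0.74 without that library. In a fit with a sex-linked score and its product with diet, described with Asns, the Ddit3 call was lost at the 25th percentile of the score (0.54, edgeR FDR 0.0173). Ddit3 shares 68 exonic bases with Mars on the opposite strand. Mars had 22436 counts over all libraries where Ddit3 had 2836. If strand was not used in counting, reads of Ddit3 and Mars in these bases cannot be told apart. A second row with the symbol Ddit3 was 0 in every library.

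Of the genes that feed back on or act beside these factors, Trib3 (ENSMUSG00000032715), a pseudokinase that binds ATF4 and CHOP, ran from 6.05 to 21.2 CPM in control with a median of 10.2, and from 12.1 to 31.3 CPM in MCD with a median of 15.4. Control replicate 4 was the only control library above 13.9 CPM. In MCD, 5 libraries lay between 23.4 and 31.3 CPM, above every control library, and the other 7 between 12.1 and 16.3 CPM. MCD stood 0.79 above control on the log2 scale (SE 0.20, edgeR FDR 0.0013). In the same fit with score and product, Trib3 was not past the threshold at the 25th percentile of the score (0.68, edgeR FDR 0.048). Nor was it at the 75th (0.89, edgeR FDR 0.0107). The product was 0.11 (SE 0.22, edgeR FDR 0.848).

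Chac1 (ENSMUSG00000027313), which cleaves glutathione, ran from 2.06 to 11.96 CPM in control with a median of 3.70, and from 2.91 to 8.82 CPM in MCD with a median of 6.08. The highest library was control replicate 12, and no MCD library lay outside the control range. The log2 fold change of 0.44 (SE 0.25, edgeR FDR 0.122, 95% interval -0.07 to 0.95) missed the threshold. It became 0.71 (FDR 0.00414) without control replicate 12 and 0.86 (FDR 0.00182) with total counts alone, both past it.

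Fgf21 (ENSMUSG00000030827), the hormone of fasting and amino acid shortage, ran from 2.60 to 16.3 CPM in control with a median of 5.55, and from 7.34 to 33.3 CPM in MCD with a median of 14.1. The diets overlapped, with 5 MCD libraries above every control library and MCD replicate 10 the highest. The mean rose from 7.28 ± 4.57 to 16.3 ± 6.84 CPM (SD, n = 12), 1.16 on the log2 scale (SE 0.28, edgeR FDR 0.000789). In the fit with the product of diet and score Fgf21 was not past the threshold at the 25th percentile of the score (0.89, edgeR FDR 0.0312).

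Of the serine synthesis enzymes, Phgdh had the lowest median in control livers, close to the limit of detection. Phgdh (ENSMUSG00000053398), which catalyses the first step, had 2 to 18 counts per control library and 34 to 122 per MCD library. In CPM it ran from 0.136 to 1.01 in control with a median of 0.439, and from 1.43 to 4.44 in MCD with a median of 2.56. The diets did not overlap. The means were 0.508 ± 0.294 and 2.62 ± 0.921 CPM (SD, n = 12), 2.36 apart on the log2 scale (SE 0.26, edgeR FDR 1.99e-08).

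Psat1 (ENSMUSG00000024640), the aminotransferase of the second step, had 1 to 57 counts per control library and 106 to 249 per MCD library. It ran from 0.0757 to 2.91 CPM in control with a median of 0.981, and from 3.96 to 9.06 CPM in MCD with a median of 6.05, again without overlap. The means were 1.25 ± 0.937 and 6.34 ± 1.73 CPM (SD, n = 12), 2.31 apart on the log2 scale (SE 0.32, edgeR FDR 5.23e-07). The last enzyme, Psph, stood at 4.94 ± 1.33 CPM in control and 4.98 ± 0.705 CPM in MCD (SD, n = 12; log2 fold change 0.01, SE 0.13, edgeR FDR 0.951, 95% interval -0.26 to 0.28). Its exons overlap those of Cct6a by 452 bases on the opposite strand, and Cct6a had 42283 counts over all libraries where Psph had 2452, so if strand was not used in counting, reads of the 2 genes in these bases cannot be told apart.

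Asns (ENSMUSG00000029752), which makes asparagine from aspartate and glutamine, had the widest spread of the 10 genes in MCD livers relative to its mean (SD at 98.7% of the mean). Its fold change was the largest of the 10 in the fit reported here. It lay below that of Atf3 with limma-voom (3.11 against 3.78) and with the replicate block (3.35 against 3.77). The same held when the score described next was a covariate (3.31 against 3.64). With the product of diet and score added, Asns stood at 1.06 against 3.46 at the 75th percentile of the score. With total counts alone Asns stood there at 1.37 against 3.77. It ran from 0.325 to 2.55 CPM in control with a median of 1.02, and from 1.53 to 43.6 CPM in MCD with a median of 14.6. The MCD libraries lay in 2 separate clusters. Replicates 1 and 2 were at 26.9 and 27.0 CPM and replicates 9 to 12 between 41.1 and 43.6 CPM, while replicates 3 to 8 lay between 1.53 and 2.20 CPM, inside the control range. The log2 fold change over all 24 libraries was 4.06 (SE 0.68, edgeR FDR 1.05e-05). The limma-voom value had an FDR of 0.0144 and was not past the threshold.

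The split of Asns followed sex-linked expression. A score, in which the mean of 4 Y-linked genes (Ddx3y, Eif2s3y, Kdm5d, Uty) is subtracted from Xist in log2 CPM, was above 0 in 6 and below 0 in 6 libraries of each diet, with a gap between -5.21 and 10.7. The score entered the fits as a number, and the libraries were not sorted by sex. The 6 MCD libraries with high Asns were the 6 with a score below 0, that is, those in which the Y-linked genes outweighed Xist. In control livers Asns ran from 0.325 to 2.005 CPM among the 6 libraries with a score below 0 and from 0.335 to 2.55 CPM among those above it. These control ranges overlapped, with medians of 1.72 and 0.419 CPM, the higher on the same side of the score as in MCD. Among libraries with a score above 0 the MCD median of Asns was 1.69 CPM, where the control median was 0.419 CPM. In a fit with diet, score and their product, added after the split was seen, the diet difference in Asns changed by -2.08 log2 units per 10 units of score (SE 0.29, edgeR FDR 0.000404), and by -2.13 (FDR 0.000621) with total counts alone. The fitted diet difference was 4.79 (SE 0.36) at a score of -6.91, the 25th percentile, and 1.06 (SE 0.38, FDR 0.0243) at a score of 11.04, the 75th percentile. The product term passed an FDR of 0.01 in 58 of 14109 genes (0.411%), and Asns was the only 1 of the 10 genes among them.

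**Figure D2:**
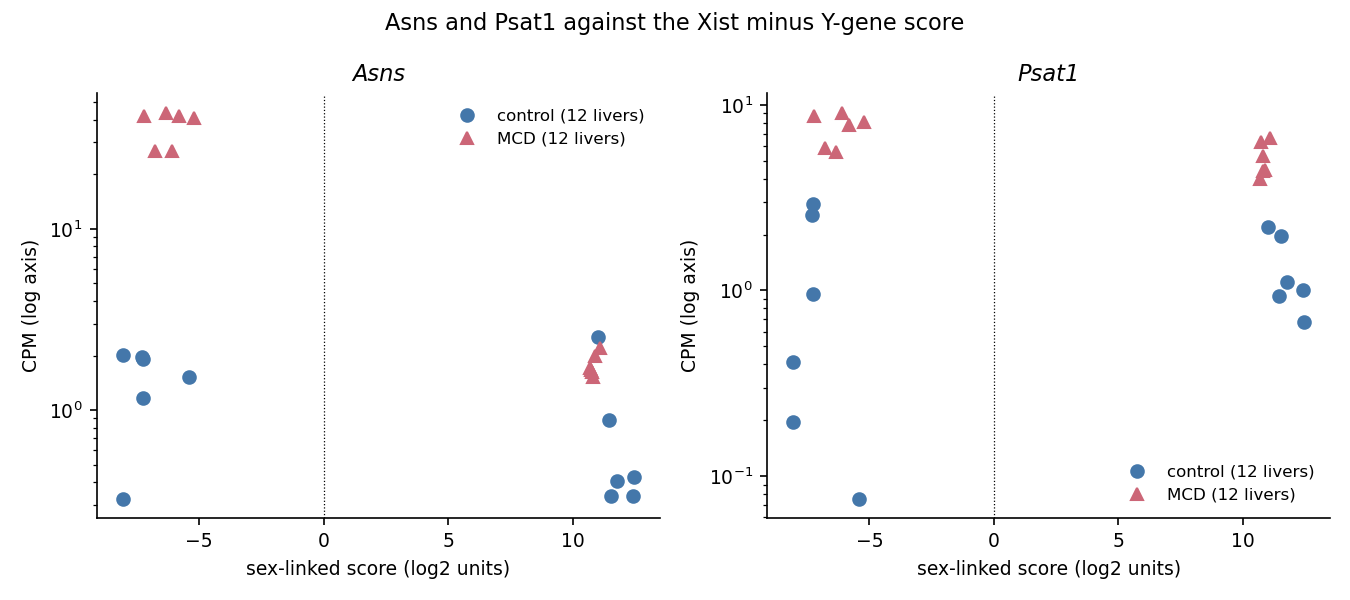
Levels of Asns and Psat1 in CPM on a log axis against the sex-linked score in log2 units, with circles for 12 control and triangles for 12 MCD libraries. MCD points of Asns lie between 26.9 and 43.6 CPM at scores below 0 and between 1.53 and 2.20 CPM at scores above 0, while MCD points of Psat1 lie above all control points on both sides.

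For the serine enzymes the MCD libraries on either side of the score overlapped. In MCD, Phgdh ran from 1.79 to 4.44 CPM among libraries with a score below 0 and from 1.43 to 4.26 CPM among those above it, and Psat1 from 5.57 to 9.06 and from 3.96 to 6.65 CPM. The product terms were -0.32 (SE 0.29, edgeR FDR 0.639) for Phgdh and -0.34 (SE 0.33, edgeR FDR 0.668) for Psat1. For Phgdh the fitted diet differences were 2.69 at the 25th and 2.11 at the 75th percentile of the score, and for Psat1 2.59 and 1.99, all past the threshold.

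**Figure D3:**
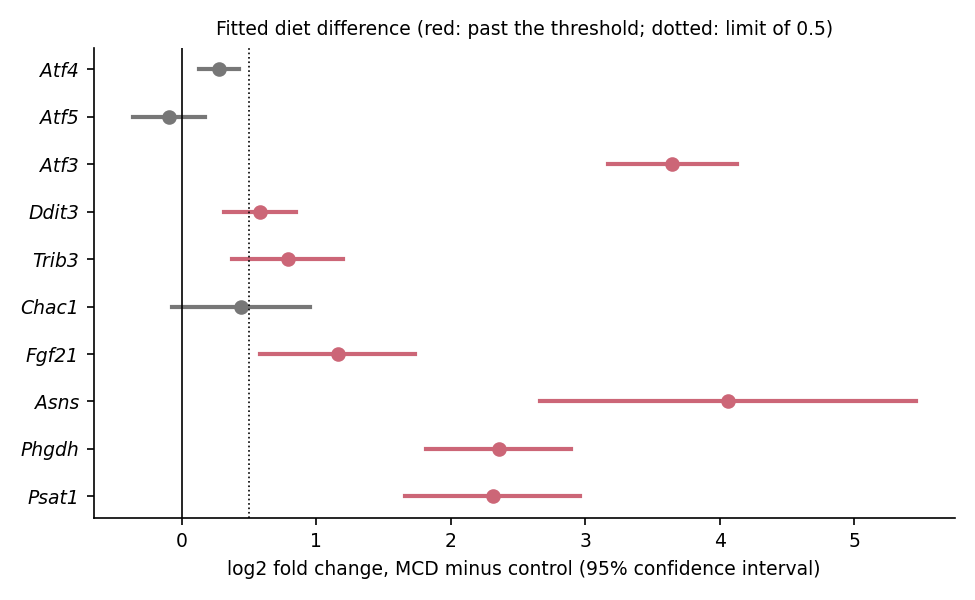
Fitted log2 fold change of MCD minus control for each of the 10 genes (points) with its 95% confidence interval (lines), in red where past the threshold, with the limit of 0.5 dotted. The interval of Asns, from 2.66 to 5.45, is the widest, and those of Atf5 and Chac1 include 0.

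Levels per length, in CPM per kb of exon, ranked the genes in a similar order in both diets, apart from Atf3 and Asns. Atf5 was highest, with medians of 175 in control and 185 in MCD, and Atf4 followed with 32.2 and 39.4. The ranges of Atf5 and Atf4 did not meet in either diet, and that of Atf4 did not meet that of the gene ranked next. Every other pair of neighbours overlapped, and the highest MCD library of Fgf21, at 34.99, lay above the lowest of Atf4, at 30.5. Phgdh was lowest in both, with medians of 0.177 and 1.03, next to Psat1 with 0.231 and 1.42. Atf3 held rank 7 in control, with a median of 1.04, and rank 3 in MCD, with a median of 15.2.

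**Figure D4:**
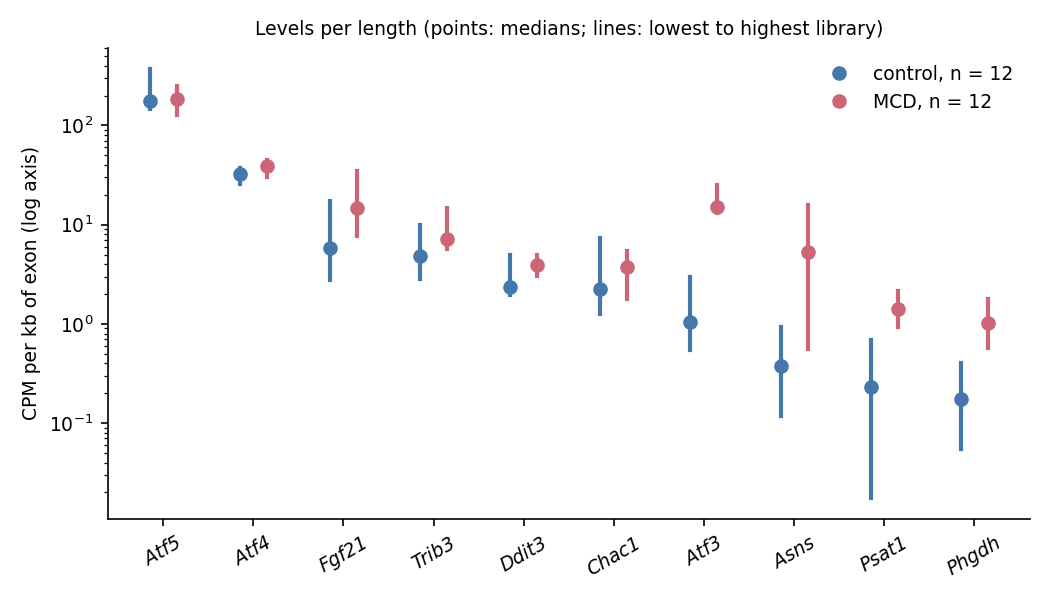
Median level of each gene in CPM per kb of exon on a log axis, with lines from the lowest to the highest of 12 libraries in each diet. The medians of Atf5 and Atf4 lie above those of the other 8 genes in both diets, and Atf3 is the gene whose lines are farthest apart among those without overlap.

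Upstream of ATF4, none of the 4 eIF2 kinases passed the threshold. The list of eIF2 kinases and regulators had 16 genes tested, of which 1 rose, 1 fell and 14 did not pass. Of all genes tested, 19.2% rose and 19.1% fell. The list's median log2 fold change was -0.17. Eif2ak3, the kinase of endoplasmic reticulum stress known as PERK, stood at -0.17 log2 (SE 0.12, edgeR FDR 0.222), and Eif2ak4, the amino acid sensor GCN2, one of -0.33 (SE 0.08, edgeR FDR 0.000685), under the fold limit. Ppp1r15a, the stress-induced phosphatase subunit GADD34 that reverses eIF2 phosphorylation, rose by 0.50 (SE 0.08), barely past the limit, and stood at 0.48 to 0.50 and inside it when control replicate 2, 5, 6, 8, 10 or 11 or MCD replicate 9 was left out. Its call was also lost with limma-voom and with the replicate block. Ppp1r15b, the constitutive subunit of the same phosphatase, fell by 0.63 (SE 0.09), but was at -0.28 and not past the limit with total counts alone. Kinase activity is not measured by mRNA.

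Of 18 other known ATF4 targets tested, 8 rose, 2 fell and 8 did not pass, where 19.2% of all genes rose and 19.1% fell. The median log2 fold change of the 18 was 0.74. Stc2, a secreted glycoprotein, rose by 3.13 (SE 0.29), from 0.414 ± 0.328 to 3.70 ± 1.09 CPM (SD, n = 12). Pycr1, the last enzyme of proline synthesis, rose by 2.29 (SE 0.23), and Nupr1, a stress-inducible chromatin protein, by 1.62 (SE 0.25). In all 3 every MCD library lay above every control library, a pattern that 9.5% of all genes showed. The other 5 that rose, Pck2, Gdf15, Ddit4, Jdp2 and Aldh18a1, did so by 0.92 to 1.36, and Pck2 and Jdp2 were also without overlap. Vldlr, a lipoprotein receptor, fell by 1.78 (SE 0.41), and Klhl24 fell by 0.68 (SE 0.11), the latter at -0.33 and inside the limit with total counts alone.

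Amino acid transporters under ATF4 control had 8 genes tested, of which 3 rose, 0 fell and 5 did not pass. The shares of all genes were 19.2% higher and 19.1% lower. The median log2 fold change of the 8 was 0.40. The cystine importer Slc7a11 had 0 to 7 counts per control library and 33 to 102 per MCD library, and its fitted log2 fold change of 4.55 (SE 0.36) depends on how such low counts are treated. Slc1a5, a neutral amino acid transporter, rose by 1.91 (SE 0.19), from 4.55 ± 1.86 to 17.2 ± 4.79 CPM (SD, n = 12), and Slc7a1, the arginine and lysine importer, by 1.71 (SE 0.23). In all 3 every MCD library lay above every control library, against 9.5% of all genes.

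Of 10 tested in the list of serine, glycine and mitochondrial one-carbon enzymes, 2 rose, 5 fell and 3 did not pass. Among all genes 19.2% rose and 19.1% fell. The median log2 fold change of the 10 enzymes was -0.40. With total counts alone or a log2 limit of 1, 2 rose and 2 fell. Mthfd2 and Mthfd1l, which carry one-carbon units through mitochondria, rose by 1.41 (SE 0.21) and 1.23 (SE 0.28). Shmt1, which converts serine to glycine in the cytosol, fell by 1.39 (SE 0.09), from 203 ± 33.2 to 77.7 ± 10.1 CPM (SD, n = 12). Gldc, of the glycine cleavage system, fell by 1.23 (SE 0.15), and Shmt2, the mitochondrial counterpart of Shmt1, fell by 0.74 (SE 0.09), and in all 3 every MCD library lay below every control library, against 4.88% of all genes. Shmt2 was at -0.36 and inside the limit with total counts alone.

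The cytosolic aminoacyl-tRNA synthetases, which charge tRNAs and of which many are ATF4 targets, mostly did not pass. Of 20 tested, 1 rose, 2 fell and 17 did not pass, where 19.2% of all genes rose and 19.1% fell. The median of the 20 was -0.20. Vars rose by 0.65 (SE 0.12). Tars fell by 0.97 (SE 0.07) and Dars by 0.52 (SE 0.10), the latter past the limit only with TMM among the 4 scalings, and inside it (-0.50 to -0.44) when any of 14 single libraries was left out.

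The FGF21 receptor list, which also holds Ppara, had 6 genes tested, of which 1 rose, 2 fell and 3 did not pass. Over all genes 19.2% rose and 19.1% fell. The list's median log2 fold change was 0.00. Fgfr1, the receptor through which FGF21 acts in fat, rose by 2.28 (SE 0.17), from 11.1 ± 5.19 to 54.0 ± 8.60 CPM (SD, n = 12), without overlap. Klb, the co-receptor that FGF21 requires, fell by 1.39 (SE 0.14), also without overlap, and Ppara, the nuclear receptor that drives Fgf21 in fasting, fell by 1.76 (SE 0.20).

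Of 6 close relatives of the 10 genes tested, 1 rose, 2 fell and 3 did not pass, with a median of -0.39, where 19.2% of all genes rose and 19.1% fell. Trib2 rose by 0.99 (SE 0.18), and Trib1 stood at 0.01 (SE 0.11, edgeR FDR 0.93). Atf7 fell by 0.69 (SE 0.11) and Chac2 by 0.65 (SE 0.13), both inside the limit with total counts alone. The 2 other arms of the unfolded protein response, run by IRE1 and ATF6, had 12 genes tested, of which 1 rose, 5 fell and 6 did not pass, with a median of -0.42. The sensor genes Ern1 (IRE1) and Atf6 fell by 0.91 (SE 0.13) and 0.80 (SE 0.10), and Edem1, of endoplasmic reticulum degradation, by 0.71 (SE 0.08), while Sdf2l1, a chaperone cofactor, rose by 0.60 (SE 0.19). The Sdf2l1 call was lost without control replicate 4, 5, 7 or 9 (0.55 to 0.59, edgeR FDR 0.0108 to 0.0127). Atf6 and Edem1 were inside the limit with total counts alone, and Ern1 was past it under all 4 scalings.

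**Figure D5:**
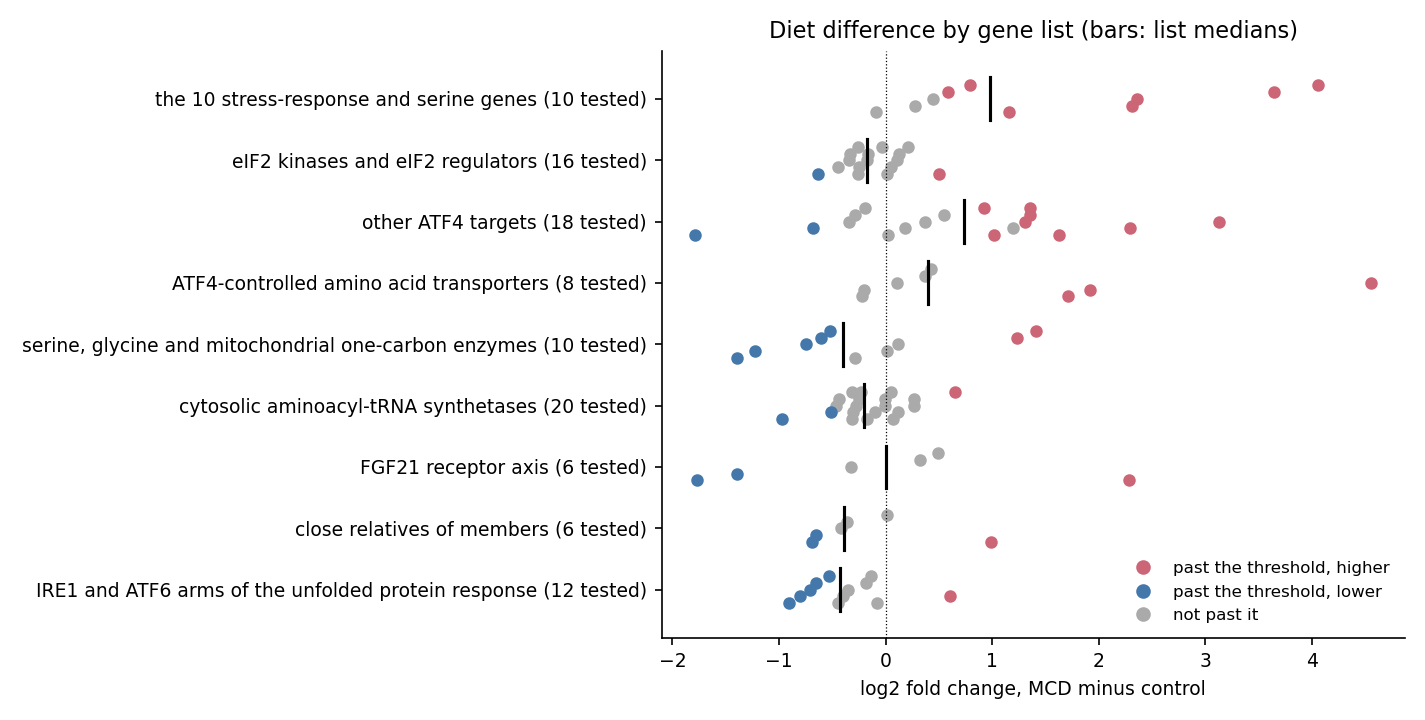
Log2 fold change of MCD minus control for each tested gene of the 10 described and of 8 related lists, in red where higher and in blue where lower past the threshold, with a bar at each median. The medians of the 10 genes (0.98), other ATF4 targets (0.74) and transporters (0.40) lie above 0, and that of the unfolded protein response arms (-0.42) is lowest.

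Within a diet no relation between pairs of the genes passed the test. Over 13 relations among 6 pairs, 0 passed an adjusted p of 0.05 and 1 had an unadjusted Pearson p under 0.05 (two-sided permutation tests, 100000 resamples for 12 libraries, exact for 6). That was Atf3 with Ddit3 in MCD livers (r = 0.63, permutation p = 0.0266, adjusted 0.339; rho = 0.68, permutation p = 0.0183, adjusted 0.217; n = 12), and r was 0.46 once the 2 libraries with the most extreme Atf3 levels were left out. In control livers the same pair gave r = -0.22 and rho = -0.08 (permutation p = 0.511 and 0.817). Phgdh and Psat1 gave r = 0.10 in control and 0.19 in MCD (permutation p = 0.758 and 0.559, adjusted 0.758 and 0.661), with rho = 0.25 and 0.26 (permutation p = 0.434 and 0.415). Because Asns lay in 2 clusters in MCD, its relation to Atf4 was taken on each side of the score, and gave r = -0.80 and rho = -0.89 in the 6 high libraries (exact permutation p = 0.0764 and 0.0333, adjusted 0.339 and 0.217) and r = -0.72 and rho = -0.54 in the 6 low ones (exact permutation p = 0.104 and 0.297, adjusted 0.339 and 0.631). Once the 2 libraries with the most extreme Atf4 levels were left out, r was -0.69 and 0.53 over 4 libraries each.

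The genes whose deviations from the diet means were most like the mean of the 10, over 24 libraries, were Rhoc (r = 0.84), Bcl2a1b (r = 0.84), Tmem86a (r = 0.83), Lgals3 (r = 0.82) and Cyba (r = 0.79). Rhoc encodes a small GTPase, Lgals3 galectin-3 and Cyba a subunit of the phagocyte NADPH oxidase. All 5 were higher in MCD, by 0.89 to 4.71 on the log2 scale. Bcl2a1b has near-identical copies among which reads can be split, so its own level is uncertain. The points share libraries and scaling, and these r are a description.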

How the data were processed

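The table covers 24 poly(A) libraries of whole liver, 12 per diet, each in its own column. The authors deposited raw counts per Ensembl gene, with no normalization. Their processing notes name bcl2fastq, STAR 2.7.3a and mm10; the study's RNA-seq methods name a stranded kit, the exon quantification pipeline and PISCES, written for alignment to the human genome. The mouse annotation and strand setting are not given in the sources used here. Since 2122 identifiers are newer than GENCODE M21, no coordinates are printed for counted features. Total counts (16388650 to 24915175) set the precision, and the floor of 3 counts covers counting error only. 0 columns were left unused.

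Symbols came from GENCODE M21 by identifier (51745 of 56205 rows; the rest held 0.0808% of counts), per-length levels from its union exon lengths, and promoters from a RefSeq table of GRCm38.p6, searched without those of chromosome 18. Genes passing filterByExpr by diet (14109) were fitted in edgeR 4.0.16 (R 4.3.3; TMM, glmQLFit, glmQLFTest, no covariate) with the study's human-liver limits, FDR ≤ 0.01 and |log2FC| > 0.5. SEs are the absolute log2 fold change over the square root of F. A prior count of 2 was added for log2 CPM, and all CPM rest on effective (TMM) library sizes. The labels do not say that libraries came from separate cages or days, so p-values measure the spread between these animals.

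The genes described and all lists were chosen with earlier results of these data known. Named are the 10 genes, Psph, Eif2ak3, Eif2ak4, up to 3 of the largest rises and falls past the threshold in each list, and the 5 genes most like the 10. Trib1, Cct6a and 5 further ATF4 targets were named after their values were seen.

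Alternatives were scaling by total counts alone, by relative log expression or by upper quartiles, a minimum of 10 counts in every library or no filter, DESeq2 1.42.0, limma-voom (limma 3.58.1), a replicate block, the sex-linked score as a covariate, an FDR of 0.05 with no fold limit, a log2 limit of 1, and each library left out. The product of diet and score, and the relation of Atf4 to Asns on each side of the score, were added after seeing the data. Permutation tests used numpy 2.4.6 in Python 3.11.15. On simulated counts of 14109 genes the MCD against control edgeR fit recovered 76 of 100 genes changed by 1 on the log2 scale. It recovered 96 of 100 changed by 2 and called 2 unchanged genes. The product term, simulated with such changes per 10 units of score and no separate diet effect, recovered 70 and 93 and called 0. The simulation changed far fewer genes than were called here, in random directions, so these figures need not hold for these data.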

Additional observations from a re-analysis of the deposited data

Results flagged for a closer look

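The diet difference in Asns depended on the sex-linked score, by a test of the difference itself. The product of diet and score was -2.08 log2 units per 10 units of score (SE 0.29, edgeR FDR 0.000404), and the 6 MCD libraries with a score below 0 stood at 26.9 to 43.6 CPM where the 6 above 0 stood at 1.53 to 2.20 CPM. The test was chosen after the split in Asns had been seen in the same libraries, and the labels give no sex for a library. Any other factor that divides the MCD libraries in the same way cannot be told apart from the score.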

How the results depend on the processing

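Control levels of Phgdh, Psat1 and Asns rest on few counts, and with at least 10 counts in every library these 3 were not tested, leaving 4 genes higher in place of 7. Leaving out single libraries gave 7 to 8 higher and 0 lower, the eighth being Chac1. The labels give no pairing of same-numbered libraries. Their deviations correlated above 0.1 in 8 of 12 pairs (r from -0.28 to 0.35; median 0.23, against -0.06 for other pairs). On the sex-linked score 10 of the 12 pairs lay on the same side of 0, and the others, replicates 2 and 8, were the pairs with the lowest r. Only 2 control and 1 MCD libraries correlated best with their own number. With the replicate as a block no call among the 10 genes changed, Asns being at 3.35. Total counts alone turned the split of all genes from 2712 higher and 2688 lower to 4539 and 848, and upper-quartile factors to 3261 and 1710.

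Of the 10 genes, Atf4 passed with total counts alone (0.65; 0.67 and 0.63 at the 25th and 75th percentiles of the score) and at an FDR of 0.05 with no fold limit (0.28). Atf5 was at 0.054 with upper-quartile factors, 0.27 with total counts alone (0.34 and 0.22 at the percentiles) and -0.13 to 0.017 with libraries left out, above 0 only without control replicate 4. Chac1 passed at 0.86 with total counts alone and ran from 0.37 to 0.71 with libraries left out. Ddit3 (0.58) and Trib3 (0.79) did not reach a log2 limit of 1. With the product term in the fit, 4 genes passed at the 25th percentile, where Ddit3 (0.54), Trib3 (0.68) and Fgf21 (0.89) did not, and at the 75th percentile Trib3 (0.89) and Asns (1.06) did not. Limma-voom put Asns at 3.11, not past the threshold. The alternatives without the product term and with all libraries kept gave 3.64 to 3.98 for Atf3 and 3.11 to 4.40 for Asns. They gave 2.36 to 2.72 for Phgdh and 2.29 to 2.69 for Psat1. With single libraries left out the ranges were 3.57 to 3.82 for Atf3 and 3.90 to 4.22 for Asns. Those of Phgdh and Psat1 were 2.27 to 2.53 and 2.21 to 2.48.

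Counts in the lists moved by over 1.5 times as follows; the cause was not tested beyond the scale or limit itself. For eIF2 kinases and regulators, 4 rose with total counts alone, 2 at an FDR of 0.05, and 0 with limma-voom, the replicate block or a limit of 1 (0 to 1 with libraries left out); 0 fell with upper-quartile factors, total counts alone or a limit of 1, and 5 at an FDR of 0.05. For other ATF4 targets, 4 rose with 10 counts in every library, and 1 fell with total counts alone or a limit of 1, 4 at an FDR of 0.05. For transporters, 5 rose with total counts alone or at an FDR of 0.05, where 1 fell. For serine, glycine and one-carbon enzymes, 1 rose with 10 counts in every library, and 3 fell with upper-quartile factors, 2 with total counts alone or a limit of 1. For synthetases, 4 rose with total counts alone, 3 at an FDR of 0.05 and 0 with a limit of 1; 1 fell with either set of factors, total counts alone, no filter, 10 counts in every library, DESeq2, limma-voom or the replicate block, 11 at an FDR of 0.05 and 0 with a limit of 1 (1 to 3 with libraries left out). For the FGF21 receptor list with Ppara, 2 rose with either set of factors, either count filter, DESeq2 or an FDR of 0.05. In the same list 3 rose with total counts alone (1 to 2 with libraries left out). For relatives, 0 rose with a limit of 1, and 1 fell with upper-quartile factors, 0 with total counts alone or a limit of 1, and 4 at an FDR of 0.05. For the unfolded protein response arms, 0 rose with a limit of 1 (0 to 1 with libraries left out), and 1 fell with total counts alone, 8 at an FDR of 0.05 and 0 with a limit of 1.

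Among relations, Atf4 with Asns in control went to r = -0.00995 without the 2 farthest libraries, Atf4 with Asns in the MCD libraries with a score above 0 to 0.53, and Atf3 with Ddit3 in control to 0.032 with total counts alone.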

Other observations

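Across the 12 MCD libraries the genes whose log2 CPM followed Asns most closely were Uty, Ddx3y, Kdm5d and Eif2s3y, which lie on the Y chromosome, and Vmp1, which acts in autophagy. The genes that ran most opposite to it were Cyp2a4, Cyp2c29, Slc22a27, Cyp2a22 and 9030619P08Rik. Since the libraries lie in 2 clusters, such a ranking measures little beyond the split itself, and no correlation is given.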
